A study of Homo sapiens with 24 samples.

Results

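How fast labelled mRNA disappeared between 2 and 6 h of a uridine chase was compared between a HEK293 line overexpressing ZC3H7B (ZC3H7B-OE) and its control line. The comparison uses 18 of the 24 libraries of the series, 3 for each line at 2, 4 and 6 h. The 6 libraries of 0 h were left out, because the loss is taken after the first hours of the chase. HEK293 is an established human embryonic kidney line. Both lines carried a Flag/HA construct, alone in control and joined to ZC3H7B in ZC3H7B-OE, and both received 1 µg/mL doxycycline together with 100 µM 4-thiouridine (s4U) for 24 h, with the medium renewed every 6 h. Cells were then washed and given 10 mM uridine, per the labels. Whether each line is 1 clone or a pool is not given. No label ties the replicates to different cultures, and the p-values below therefore rest on a spread between libraries that may be technical.

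Cells build s4U into RNA made during the pulse, and alkylation after extraction makes it read as C in place of T. Reads with such T>C conversions are called labelled, and their loss during a chase with plain uridine follows the decay of the older mRNA. mRNA decay usually starts with shortening of the poly(A) tail by the CCR4-NOT complex, followed by removal of the cap and digestion from both ends. ZC3H7B and its paralog ZC3H7A belong to the CCCH zinc finger proteins, many of which bind RNA. Some members, such as ZFP36, bring CCR4-NOT to mRNAs with AU-rich 3' UTRs. The choice of synonymous codons is also known to affect how long an mRNA lasts, and in human cells G or C at the third codon position has been tied to longer life. The series concerns codon-dependent effects of ZC3H7A and ZC3H7B on translation and stability.

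Genes with slower and faster loss of label in ZC3H7B-OE differed in base composition, so the start of the coding sequence is shown for the first 3 genes by p-value among those named here in each direction that have a coding sequence in GENCODE release 29 (GRCh38). Each line gives codons 2 to 31, and capitals mark G or C at the third position of a codon. The first 3 are genes whose label was lost more slowly in ZC3H7B-OE, and the last 3 are genes whose label was lost faster there.
H2AFX: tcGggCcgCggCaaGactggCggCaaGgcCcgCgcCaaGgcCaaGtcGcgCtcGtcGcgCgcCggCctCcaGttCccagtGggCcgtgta
PITX1: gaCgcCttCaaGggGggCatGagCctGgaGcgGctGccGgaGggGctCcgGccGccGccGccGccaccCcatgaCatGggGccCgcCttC
SAMD11: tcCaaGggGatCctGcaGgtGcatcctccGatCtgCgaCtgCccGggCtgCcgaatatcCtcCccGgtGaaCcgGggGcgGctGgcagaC
HSPA13: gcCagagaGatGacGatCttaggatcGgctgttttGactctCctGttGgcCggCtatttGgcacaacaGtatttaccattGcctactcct
YPEL5: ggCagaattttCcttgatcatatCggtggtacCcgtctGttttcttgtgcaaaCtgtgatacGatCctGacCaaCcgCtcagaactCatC
B2M: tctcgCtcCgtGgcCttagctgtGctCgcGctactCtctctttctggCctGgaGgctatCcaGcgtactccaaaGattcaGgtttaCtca
In these stretches of 30 codons, G or C ended 26 codons of H2AFX, 28 of PITX1 and 25 of SAMD11, against 15 of HSPA13, 14 of YPEL5 and 16 of B2M. Over the whole coding sequence the share was 92.3% in H2AFX (chr11:119093854-119095467, minus strand), 90.5% in PITX1 (chr5:135028553-135034634, minus strand) and 80.0% in SAMD11 (chr1:925738-944575, plus strand). It was 39.3% in HSPA13 (chr21:14371115-14383187, minus strand), 49.6% in YPEL5 (chr2:30147516-30159551, plus strand) and 51.3% in B2M (chr15:44711517-44718145, plus strand), against a median of 58.7% over the tested genes.

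The 18 libraries held 1675707 to 3676254 reads each, of which 830574 to 1508502 were labelled, with 12125 to 13201 genes detected and TMM factors between 0.916 and 1.082. Of 6 fibroblast markers COL1A2 and DCN had no read in any library, and VIM, the most abundant, averaged 4.44 RPM (reads scaled to the total of all reads of the library, the usual depth-normalised unit) in control and 4.87 in ZC3H7B-OE. Of 6 leukocyte markers PTPRC, CD3E and LYZ had no read, while the lysosomal CD68 averaged 56.5 and 78.0. CD79A averaged 2.56 RPM in control and 4.41 in ZC3H7B-OE, and FCER1G 4.64 and 4.99. Of 5 neuronal markers in the tables, a type reported for HEK293, INA averaged 124 RPM in control and 157 in ZC3H7B-OE, while NEFM, NEFH, STMN2 and TUBB3 averaged at most 2.64 RPM in control and 3.40 in ZC3H7B-OE. Of 5 epithelial markers EPCAM, KRT8 and KRT18 averaged 21.7, 13.9 and 8.65 RPM in control, and KRT19 and CDH1 were near 0 in both lines.

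As a check of the labels, all reads of ZC3H7B, the overexpressed gene, came to 376, 374 and 303 RPM in control at 2 h against 302, 371 and 351 with ZC3H7B-OE, so the lines overlapped. By 4 h ZC3H7B was at 206, 228 and 245 RPM against 289.9, 290.8 and 307.5, and by 6 h at 187, 222 and 199 against 267, 252 and 269, each without overlap. The excess in the line labelled ZC3H7B-OE was thus small at 4 and 6 h and not seen at 2 h. Whether reads of the construct were counted under this gene is not given.

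The labelled share of the whole library was lost at rates that did not differ by the test. Labelled reads made up 75.7% ± 1.82 (SD, n = 3) of control reads at 2 h and 71.8% ± 0.861 of ZC3H7B-OE reads. At 4 h the shares were 47.7% ± 0.759 and 45.5% ± 0.520, and at 6 h they were 29.9% ± 0.729 and 29.7% ± 0.664. The lines did not overlap at 2 h, where control ran from 73.7% to 77.2% and ZC3H7B-OE from 70.8% to 72.4%, and they did overlap at 6 h. The log2 share fell by 0.335 per h in control and by 0.319 per h in ZC3H7B-OE, which corresponds to half-lives of 2.99 and 3.14 h. The difference of 0.0157 log2 per h did not pass a two-sided exact permutation test of line labels within each time (p = 0.195, 8000 assignments, 9 libraries per line). With the 0 h libraries added it was 0.00392 (exact permutation p = 0.508). Over 2, 4 and 6 h the libraries of 4 h carry no weight in this slope. Permuting line labels also brings the level difference of the lines at 2 h into the spread. The test therefore cannot show that the rates were equal.

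**Figure D1:**
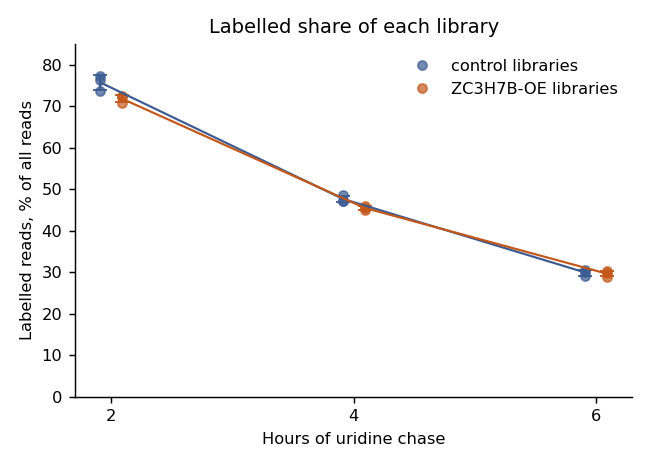
Labelled reads as a percentage of all reads (y axis) in each library at 2, 4 and 6 h of chase (x axis), with points for libraries and lines with error bars for the mean and SD of 3. Control starts higher, at 75.7% against 71.8%, and the lines meet near 30% at 6 h (29.9% and 29.7%).

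Per gene, a slope was fitted to the log2 of labelled reads over 2, 4 and 6 h in each line, with labelled counts set against the total of all reads of the library (edgeR's quasi-likelihood test, Benjamini-Hochberg adjustment over 8533 entries, threshold 0.05). A slope of -0.5 log2 per h is a half-life of 2 h. These slopes include dilution by new mRNA, since all reads are the yardstick. Loss of label of a gene is meant in this sense throughout, and the labelled share of the gene can move otherwise. Labelled reads fell in control for 7061 entries (82.7% of those tested) and in ZC3H7B-OE for 6936 (81.3%), and 6357 fell in both. The median slope was -0.367 in control and -0.336 log2 per h in ZC3H7B-OE, and the median half-lives of falling entries were 2.68 and 2.94 h.

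The slope differed between the lines for 96 of 8533 entries (1.13%). In 83 (0.973%) it was higher in ZC3H7B-OE, meaning slower loss of label than in control, and in 13 (0.152%) it was lower, meaning faster loss. Over all entries the median difference was 0.026 log2 per h, with quartiles of -0.063 and 0.114, and 57.9% of entries were above 0. Of the 83, all had negative slopes in both lines, and their median slope was -0.59 in control and -0.36 in ZC3H7B-OE. Of the 13, 7 had a negative slope in control and 13 in ZC3H7B-OE, with medians of -0.08 and -0.39. So, against all reads, labelled reads of the first set fell fast in control and nearer the average rate in ZC3H7B-OE. Those of the second set barely fell in control. The labelled share did fall in control from 2 to 6 h in the genes of the second set named below. It went from 71.5% to 27.5% in HSPA13, from 72.7% to 23.9% in ITCH and, the smallest fall, from 60.8% to 47.3% in B2M. That of the whole control library went from 75.7% to 29.9%. Differences of the 83 ran from 0.147 to 0.610 (median 0.226), and those of the 13 from -0.434 to -0.181 (median -0.305).

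The excess of higher over lower slopes varied with the scaling and the tool. It was 83 to 13 with plain library totals, 39 to 13 with TMM factors added, 55 to 24 with labelled totals. It was 82 to 41 with DESeq2 and its own size factors, where test and scaling changed together. A mean per group with a linear contrast gave 203 to 61. Leaving out 1 library gave between 34 and 142 entries. The count was 34 without control 2 h replicate 1, 59 without control 2 h replicate 2, 37 without ZC3H7B-OE 2 h replicate 3, 56 and 48 without control 6 h replicates 1 and 2, and 50 without ZC3H7B-OE 6 h replicate 3. With the 0 h libraries added, so that the slope spans the lag, 0 entries passed the edgeR test (306 at an unadjusted p under 0.05, against 1153 without 0 h). 5 of the 96 entries name several genes that share reads.

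**Figure D2:**
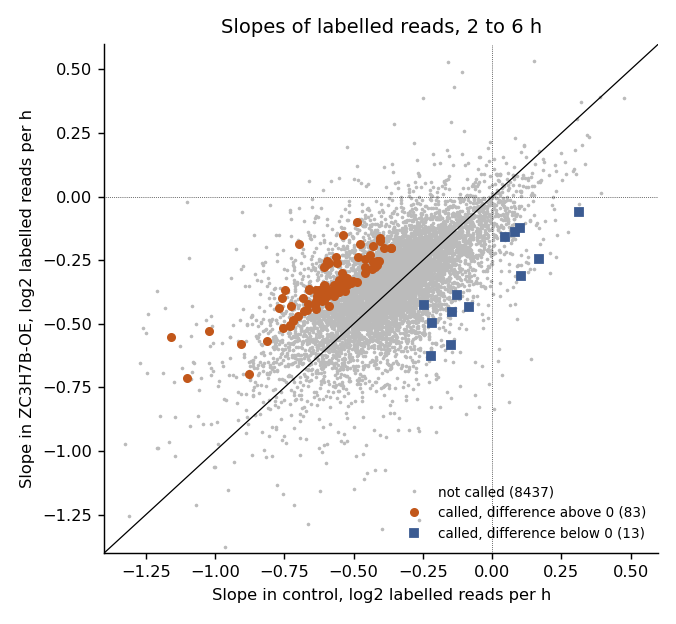
Slope of labelled reads in control (x axis) against ZC3H7B-OE (y axis), both in log2 per h, 1 point per tested entry, with the line of equal slopes. The 83 entries called with a difference above 0 lie above the line at negative slopes, and the 13 with a difference below 0 lie under it; 5 uncalled entries lie outside the axes.

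Of the 3960 well-measured genes (1 gene per entry and at least 150 labelled reads at 2 h in each line), 75 had a higher slope in ZC3H7B-OE and 8 a lower one. H2AFX, which encodes the histone variant H2A.X that is phosphorylated around DNA breaks, had the smallest p. At 2 h its labelled level was 865, 914 and 701 RPM in the control libraries, against 1032, 938 and 876 with ZC3H7B-OE. By 4 h they were 312, 358 and 347 against 578, 594 and 582, and by 6 h 100.2, 87.0 and 103.9 against 268, 291 and 285. The lines overlapped at 2 h and stood apart at 4 and 6 h, where every ZC3H7B-OE library was higher. The slope of H2AFX was -0.77 in control and -0.44 in ZC3H7B-OE, half-lives of 1.30 and 2.28 h, and the difference was 0.33 log2 per h (SE 0.04, adjusted p = 9.45e-07). Its labelled share at 6 h was 26.6% ± 1.05 (SD, n = 3) in control against 49.6% ± 1.64.

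PITX1, a homeodomain transcription factor, was higher in all 3 ZC3H7B-OE libraries at each time. At 2 h PITX1 had 89.6, 101.8 and 101.5 labelled RPM in control against 129, 121 and 113. By 4 h this was 27.5, 37.5 and 41.4 against 84.6, 109.5 and 77.5, and by 6 h 9.40, 15.8 and 10.6 against 35.6, 43.7 and 39.0. The gap widened from a log2 difference of 0.31 at 2 h to 1.74 at 6 h, and the slopes were -0.76 and -0.40 (difference 0.36, SE 0.07, adjusted p = 0.00356).

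TXNIP, the thioredoxin-interacting protein, whose mRNA is known to be short-lived, changed order during the chase. At 2 h it had 123.4, 119.5 and 103.8 labelled RPM in control against 98.5, 77.3 and 82.7 with ZC3H7B-OE. By 4 h this was 18.7, 21.4 and 22.2 against 27.0, 24.7 and 30.9, and by 6 h 5.95, 6.66 and 5.17 against 11.3, 14.0 and 11.2. All 3 ZC3H7B-OE libraries were lower at 2 h and higher at 4 and 6 h. The slopes of TXNIP were -1.10 and -0.71 log2 per h, half-lives of 0.907 and 1.40 h (difference 0.39, SE 0.08, adjusted p = 0.00395).

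The other 7 of the 10 highest differences among well-measured genes follow. TMEM79 had the largest of the 10, 0.50 log2 per h (SE 0.11, adjusted p = 0.0116), with 3.13, 0.351 and 2.45 labelled RPM left in control at 6 h and 11.6, 8.13 and 13.0 in ZC3H7B-OE. ZNF580, a zinc finger protein, went from a slope of -0.49 to -0.10 (difference 0.39, adjusted p = 0.0115). BCAR1, the focal adhesion adaptor p130Cas, had slopes of -0.75 and -0.37 (difference 0.38, adjusted p = 0.0266). SAMD11 differed by 0.34 (adjusted p = 0.00949) and, like TXNIP, was lower in every ZC3H7B-OE library at 2 h and higher in every one at 6 h. MTHFSD, ACSS1 (the mitochondrial acetyl-CoA synthetase) and SIX5 (a homeobox factor) each differed by 0.33, with adjusted p of 0.0253, 0.0383 and 0.0431.

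HSPA13, an Hsp70-family chaperone of the endoplasmic reticulum, had the smallest p of the genes with faster loss in ZC3H7B-OE. At 2 h its labelled RPM were 178.2, 175.8 and 208.2 in control against 275, 257 and 259. By 4 h they were 214.1, 177.8 and 167.8 against 99.8, 137 and 141, and by 6 h 121.5, 116.4 and 136.3 against 74.0, 88.0 and 64.3. All ZC3H7B-OE libraries were above control at 2 h and below it at 4 and 6 h. The slopes of HSPA13 were -0.15 and -0.45 log2 per h, half-lives of 6.81 and 2.21 h (difference -0.30, SE 0.05, adjusted p = 0.000573).

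YPEL5, a Yippee-family protein of the CTLH ubiquitin ligase, had the largest size of difference among the 7 genes named here with faster loss, -0.35 log2 per h (SE 0.08, adjusted p = 0.0116). At 6 h it had 39.8, 29.1 and 30.7 labelled RPM in control and 16.1, 17.7 and 17.7 in ZC3H7B-OE, while the lines overlapped at 2 h. B2M, the light chain of MHC class I, had slopes of -0.25 and -0.43 (difference -0.18, SE 0.04, adjusted p = 0.0117). Its labelled RPM at 6 h were 354, 318 and 326 in control and 205, 202 and 214 in ZC3H7B-OE. The septin SEPT7 (-0.28, adjusted p = 0.0221), the RAS pathway scaffold SHOC2 (-0.26, 0.0266), the lipid transfer protein OSBPL8 (-0.22, 0.0271) and the ubiquitin ligase ITCH (-0.22, 0.0237) also passed. SEPT7 had 35.1, 41.4 and 34.0 labelled RPM in control at 6 h against 14.6, 14.6 and 19.5, with no overlap. ITCH and OSBPL8 had control slopes above 0, at 0.08 and 0.10 log2 per h. The next genes in this direction by p-value were RSL24D1, a ribosome biogenesis factor (-0.17, adjusted p = 0.0501), and C1orf43 (-0.14, adjusted p = 0.0560).

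**Figure D3:**
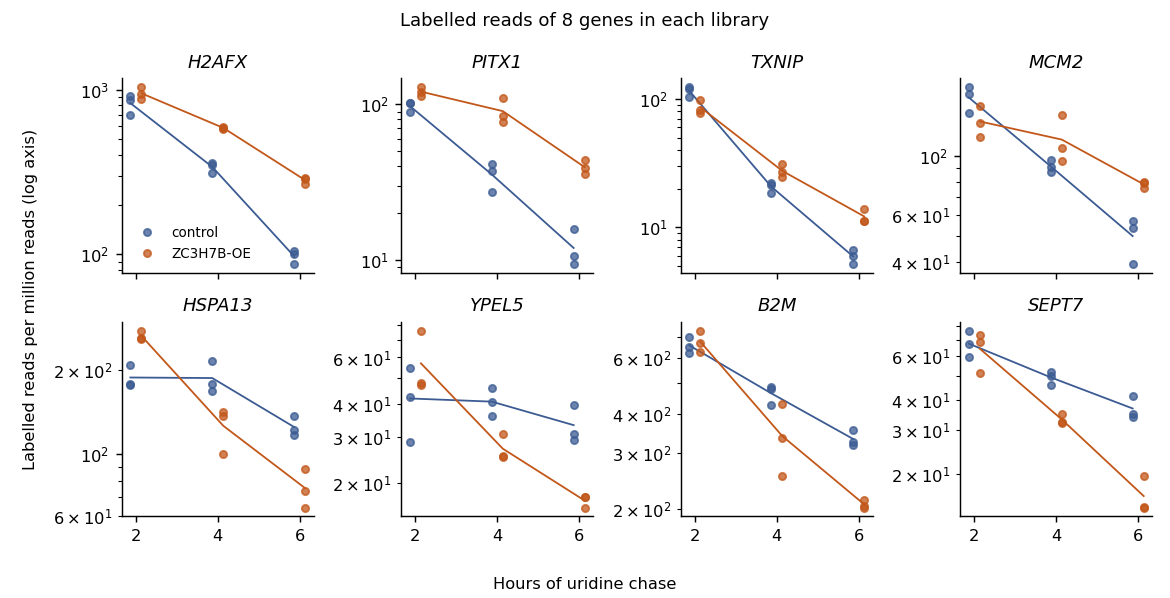
Labelled RPM (log y axis, a scale for each gene) in each library at 2, 4 and 6 h of chase (x axis) for 8 called genes, with lines through the means of 3 libraries. In the upper row the ZC3H7B-OE libraries lie above control at 6 h, and in the lower row they lie below it.

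Of the 23 named genes that passed the test, 6 kept the call whichever library was left out: H2AFX, HSPA13, PITX1, TXNIP, ZNF580 and B2M. SAMD11 lost it without control 2 h replicate 1 and TMEM79 without control 6 h replicate 2. The other 15 lost it without 3 to 10 different libraries, SIX5 with the most. Leaving out control 2 h replicate 1 ended 16 of the 23 calls, and leaving out any 4 h library ended 0 of them. The latter says little, since 4 h is the middle time and carries almost no weight in a slope over 2, 4 and 6 h.

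Neither ZC3H7B nor ZC3H7A differed in slope by the test. At 2 h ZC3H7B had 292.9, 287.8 and 232.4 labelled RPM in control against 185.0, 229.2 and 194.6 in the overexpressing line. By 4 h this was 135.4, 138.3 and 159.1 against 111.2, 98.1 and 101.1, and by 6 h 86.4, 99.3 and 89.0 against 55.7, 58.3 and 55.6. Every ZC3H7B-OE library was below every control library at each time, so the labelled level was lower already at 2 h. The slopes were -0.39 and -0.46 log2 per h, half-lives of 2.55 and 2.17 h (difference -0.07, SE 0.05, adjusted p = 0.561). ZC3H7A had slopes of -0.38 and -0.50 (difference -0.12, SE 0.09, adjusted p = 0.617), and the ranges of the lines overlapped at 2 h and stood apart at 6 h, at 11.3 to 16.9 labelled RPM in control and 7.85 to 8.83 in ZC3H7B-OE.

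The well-measured genes with the steepest or shallowest slopes over both lines show the span of the slopes, and none of them passed the test of the line difference. Among them the steepest mean slopes belonged to ZNF627 (-0.95 in control and -1.15 in ZC3H7B-OE), the stress-induced factor DDIT3 (-1.02 and -0.89), the inhibitor of DNA binding ID3 (-0.99 and -0.88) and the death-receptor adaptor FADD (-0.99 and -0.97). By 6 h DDIT3 was down to 4.38, 8.42 and 5.17 labelled RPM in control. The shallowest were AGFG1 (0.23 and 0.12), the ubiquitin ligase MARCH7 (0.18 and 0.06), the phosphatase PPP6C (0.14 and 0.09) and the inducible Hsp70 gene HSPA1B (0.13 and 0.07). A slope above 0 means that labelled reads of the gene made up more of the library at 6 h than at 2 h. It does not mean that the gene kept its label. From 2 to 6 h in control the labelled share fell from 91.3% to 32.7% in AGFG1 and from 57.6% to 27.8% in MARCH7. It fell from 75.4% to 29.8% in PPP6C and from 58.3% to 7.68% in HSPA1B. All reads of each of these genes rose meanwhile, those of HSPA1B from 63.8 to 689 RPM. Adjusted p of the line difference ran from 0.454 to 0.975 over these 8 genes.

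The integrated stress response, in which limited translation initiation leads to ATF4 target genes being switched on, held the most calls of the 18 lists. Of 29 tested members 3 had a higher slope in ZC3H7B-OE and 0 a lower one, where 0.973% and 0.152% of all entries did, and the median difference was 0.041 against 0.026 over all entries. GPT2, a mitochondrial alanine aminotransferase, had slopes of -0.41 and -0.25 (difference 0.16, SE 0.04, adjusted p = 0.0225), and its labelled RPM at 6 h were 246, 208 and 247 in control and 299.6, 293.7 and 310.7 in ZC3H7B-OE. SESN2, a sestrin that restrains mTORC1 when leucine is short, had slopes of -0.88 and -0.70 (difference 0.18, SE 0.04, adjusted p = 0.0243). The third was the secreted hormone STC2, named after its value was seen (difference 0.16, SE 0.04, adjusted p = 0.0384). Another member named after its value was seen, the mTORC1 inhibitor DDIT4, had a difference of -0.21 (adjusted p = 0.210). The member SLC38A2 was called lower in ZC3H7B-OE for the step from 2 to 4 h, as given below. In all, 18 of the 29 were above 0, where 57.9% of all entries were. Leaving out 1 library ended the call of GPT2 for 4 libraries and that of SESN2 for 6. Both calls also ended with either trend over 3' UTR GC taken out, as described below. G or C ended 77.6% of the codons of GPT2 and 79.0% of those of SESN2. Whether the calls in this list go beyond base composition was not tested.

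Next come genes of mRNA decay, to be read against the 1.13% of all entries that passed. In the list of decapping, decay and ribosome quality control 1 of 38 tested members passed, which is near that share: ZNF598, the ubiquitin ligase that senses collided ribosomes, with slopes of -0.55 and -0.33 (difference 0.23, SE 0.06, adjusted p = 0.0367). DCP1A, a decapping cofactor, had a difference of 0.15 (adjusted p = 0.149). Of 12 members of the microRNA pathway 1 passed: DGCR8, the partner of Drosha in primary microRNA cleavage, with slopes of -0.61 and -0.39 (difference 0.21, SE 0.05, adjusted p = 0.0205). Its labelled RPM at 6 h were 44.2, 34.4 and 46.0 in control and 68.2, 65.6 and 92.1 in ZC3H7B-OE, with no overlap. Among CCR4-NOT and deadenylation genes 0 of 20 passed, with TOB2 at 0.12 and ANGEL2 at -0.18 (adjusted p = 0.243 and 0.258). Among CCCH zinc finger genes 0 of 34 passed, with ZC3H18 at 0.19 and ZC3H4 at 0.17 (adjusted p = 0.210 and 0.238).

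Of 60 tested cytosolic ribosomal protein genes 0 passed, and 16 were above 0, where 57.9% of all entries were. Their median difference was -0.048 log2 per h, while the list's median slopes, -0.279 in control and -0.271 in ZC3H7B-OE, differ in the opposite direction. RPL37 had -0.12 (adjusted p = 0.0681) and RPL13A -0.17 (adjusted p = 0.249). Many of these genes have close copies among pseudogenes, so their counts are uncertain. Translation factors had a median of -0.0018 with 0 of 32 called, where the elongation factor EEF2 had 0.11 (adjusted p = 0.107) and EIF1AX -0.09 (0.267). Aminoacyl-tRNA synthetases had a median of 0.042 with 0 of 18 called, where YARS had 0.14 (adjusted p = 0.0576) and FARSA 0.31 (0.0778). Labelled YARS reads were higher in every ZC3H7B-OE library at 2, 4 and 6 h, while those of FARSA overlapped at 2 h and were higher in every one at 4 and 6 h.

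Among metabolic genes, glycolytic enzymes had the highest list median, 0.108 log2 per h, with 0 called. Of their 16 members 13 were above 0, where 57.9% of all entries were. PKM, the pyruvate kinase, had slopes of -0.28 and -0.18 (difference 0.11, adjusted p = 0.0954), and ENO1, the enolase, -0.27 and -0.14 (0.12, adjusted p = 0.267). G and C made up 57.0% and 56.7% of their 3' UTRs. Genes in the highest of 5 groups by 3' UTR GC, described below, had a median difference of 0.110. Whether the list median goes beyond base composition was not tested. Nuclear-encoded respiratory chain genes had a median of -0.026 with 0 of 51 called, and their best 2 pointed opposite ways, UQCR11 at 0.19 (adjusted p = 0.0896) and UQCRB at -0.14 (0.133). Cholesterol synthesis genes had a median of -0.028 with 0 of 15 called, with MVD at 0.29 (adjusted p = 0.233) and STARD4 at -0.25 (0.278). In uridine salvage and pyrimidine synthesis 1 of 14 passed, against 1.13% of all entries: UCK1, the uridine-cytidine kinase that phosphorylates s4U and the chase uridine alike, with slopes of -0.52 and -0.35 (difference 0.18, SE 0.04, adjusted p = 0.0253). Labelled UCK1 RPM at 6 h were 74.5, 78.6 and 80.5 in control and 126.7, 140.4 and 147.4 in ZC3H7B-OE. TK1, the thymidine kinase of S phase, had 0.14 (adjusted p = 0.133).

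In the list of S phase and mitosis 1 of 38 passed, near the 1.13% of all entries. MCM2, a subunit of the replicative helicase, had slopes of -0.43 and -0.20 (difference 0.24, SE 0.05, adjusted p = 0.0161). It was at 171.5, 181.7 and 145.4 labelled RPM in control at 2 h against 154.0, 133.0 and 118.5 in ZC3H7B-OE, and at 53.9, 39.3 and 57.1 against 79.2, 80.2 and 75.9 at 6 h. The lines overlapped at 2 h, and all ZC3H7B-OE libraries were higher at 6 h. MKI67, the proliferation marker Ki-67, had 0.27 (adjusted p = 0.0954).

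The remaining lists held 0 calls. Immediate early and other short-lived regulators lost label fast in both lines, with median half-lives of 2.00 and 2.04 h, and had a median difference of 0.042 over 56 members, with GADD45B at 0.21 (adjusted p = 0.210) and FOSL1, which has few reads, at 0.77 (0.102). The p53 targets had a median of -0.0051 over 17, with GADD45A at 0.14 and TP53INP1 at -0.35 (adjusted p = 0.455 and 0.227). Heat shock and cytosolic chaperones had -0.014 over 22, with DNAJB1 at -0.12 (adjusted p = 0.354) and CCT8, also with few reads, at 0.50 (0.336). Secreted and membrane protein folding had -0.017 over 19, with SYVN1 at 0.13 and P4HB at 0.06 (adjusted p = 0.317 and 0.414). Oncofetal and let-7 targets had -0.030 over 11, with HMGA1 at 0.11 and IGF2BP3 at -0.17 (adjusted p = 0.127 and 0.398). AGO4 of the microRNA list had -0.29 (adjusted p = 0.316).

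**Figure D4:**
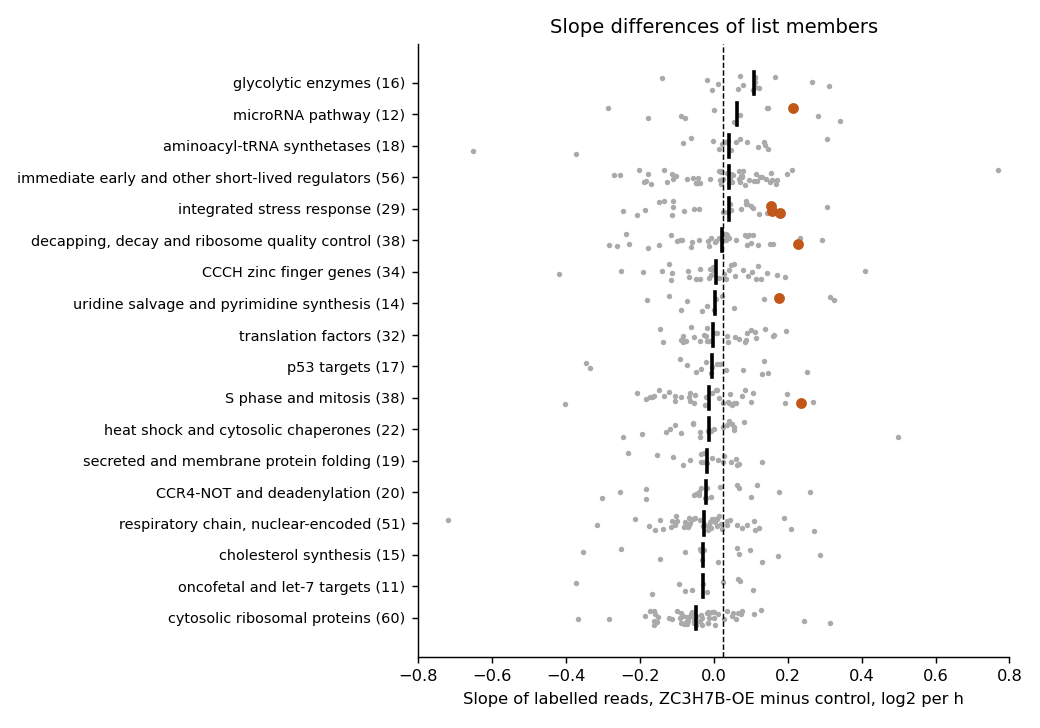
Slope difference in log2 per h (x axis) of each tested member of 18 lists, with list medians as black bars, called members as large orange points and the median over all entries (0.026) as a dashed line; the number tested stands after each name. The called members, 3 in the integrated stress response and 1 in each of 4 other lists, lie above 0, and the list medians run from -0.048 for ribosomal proteins to 0.108 for glycolytic enzymes.

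The slope of labelled reads can move with the labelled share of a gene or with the level of all its reads, and both were fitted. For the odds of labelled against unlabelled reads of a gene within a library, which need no library scaling, 3 of 8533 entries (0.0352%) had a higher slope in ZC3H7B-OE and 0 a lower one. They were H2AFX (0.39, SE 0.07, adjusted p = 0.0307), the heparan sulfate sulfotransferase gene HS6ST1 (0.61, SE 0.10, adjusted p = 0.0106) and the ubiquitin ligase gene RNF26 (0.82, SE 0.15, adjusted p = 0.0309), the last 2 named after their values were seen. With a mean per group and a linear contrast, the odds test called 317 entries (310 higher and 7 lower), so the 3 hold for the straight-line fit only. The median odds slope difference of that straight-line fit was 0.0753 log2 per h, with 67.4% of entries above 0. That median was 0.0391 without control 2 h replicate 1 and 0.0473 without control 2 h replicate 2. The count of 3 also rested on single libraries, running from 0 to 3, and it was 0 when control replicate 2 at 2 h, control replicate 2 or 3 at 6 h, ZC3H7B-OE replicate 1 or 3 at 2 h, or ZC3H7B-OE replicate 3 at 6 h was left out. It was 1 when control replicate 1 or 3 at 2 h, ZC3H7B-OE replicate 2 at 2 h, or replicate 1 of either line at 6 h was left out.

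For all reads of a gene, 0 of 10074 entries (0%) differed in slope by edgeR, with 1036 at an unadjusted p under 0.05, while DESeq2 called 56 (19 higher and 37 lower). With a mean per group and a linear contrast, edgeR called 250 (130 higher and 120 lower). The 0 thus holds for the straight-line fit and does not show that all reads moved alike in the lines. Of the 83 entries with slower label loss, 83 had a positive difference in odds (median 0.301) and 77 in all reads (median 0.0795). Of the 13 with faster loss, 1 had a positive difference in odds (median -0.121) and 0 in all reads (median -0.223). The 2 medians of a set cannot be ranked or added, because odds change more than the labelled share where that share is high. Both sets were also chosen by labelled counts, which enter the odds and all reads. Over all tested entries 67.4% were above 0 in odds and 55.2% in all reads. All reads of HSPA13 came to 262 ± 14.5 RPM at 2 h and 453 ± 22.5 at 6 h of control, against 377 ± 35.8 and 349 ± 48.5 with ZC3H7B-OE (SD, n = 3), while its odds differed by -0.10 log2 per h (adjusted p = 0.874). All reads of H2AFX at 6 h came to 383, 336 and 373 RPM in control, against 543, 566 and 593 with ZC3H7B-OE.

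The slope was also divided into its 2 steps. Between 2 and 4 h, 9 entries (0.105%) had a higher change in ZC3H7B-OE and 21 (0.246%) a lower one. H2AFX and PITX1 were among the higher (0.59 and 1.05 log2, adjusted p = 0.0267 and 0.0181), as was ENO1 (0.69, adjusted p = 0.0011), which did not pass over the whole slope. HSPA13 (-1.07, adjusted p = 0.000141) was among the lower. The amino acid transporter SLC38A2, a member of the integrated stress response list named after its value was seen, also had a lower change (-0.78, SE 0.12, adjusted p = 0.000141). In HSPA13 the difference between 4 and 6 h was -0.15 (adjusted p = 0.830). Between 4 and 6 h, 3 entries (0.0352%) were higher and 0 lower: H2AFX (0.74, SE 0.14, adjusted p = 0.00962), STC2 (0.61, SE 0.13, adjusted p = 0.0346) and the transcription elongation cyclin CCNT1 (0.66, SE 0.13, adjusted p = 0.0229), the last 2 named after their values were seen.

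These counts moved with single libraries. For 2 to 4 h the 30 became 141 without control 2 h replicate 3, 51, 50 and 10 without ZC3H7B-OE 2 h replicates 1, 2 and 3, 14 and 13 without control 2 h replicates 1 and 2, 8 and 14 without control 4 h replicates 1 and 2, and 63 and 10 without ZC3H7B-OE 4 h replicates 1 and 3. For 4 to 6 h the 3 became 61 without ZC3H7B-OE 4 h replicate 1, 6 without control 4 h replicate 1, 1 when ZC3H7B-OE 4 h replicate 2, ZC3H7B-OE 6 h replicate 1 or control 6 h replicate 3 was dropped, and 0 when replicate 2 of control or replicate 3 of ZC3H7B-OE at 4 h, or replicate 2 of ZC3H7B-OE at 6 h, was dropped.

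Slope differences followed base composition over the matched genes. The 6 genes of the coding stretches above were chosen by their slope difference and only illustrate this. Of 8260 tested entries naming 1 gene, 8037 (97.3%) were matched by gene ID to a GENCODE coding sequence. They were put in 5 groups of equal size by the share of codons ending in G or C. From the lowest to the highest share, the median slope difference was -0.038, -0.019, 0.020, 0.068 and 0.093 log2 per h. Higher slopes in ZC3H7B-OE were called for 0, 2, 6, 22 and 44 genes of these groups, and lower slopes for 8, 4, 0, 1 and 0. In the last group 2.74% of genes were thus called higher, against 0.973% of all entries. The 74 matched genes with slower loss had a median share of 78.8%, the 13 with faster loss 39.8%, and all matched genes 58.7%.

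The gradient of the slope stood in control more than in ZC3H7B-OE. The median slope of labelled reads in control was -0.245, -0.313, -0.377, -0.415 and -0.424 log2 per h over these groups. Against all reads, labelled reads thus fell least in the group with the fewest such codons. In ZC3H7B-OE the median slope was -0.276, -0.328, -0.357, -0.346 and -0.337, which spans a smaller range. The labelled share ran the other way. In control its median fell from 81.76% at 2 h to 25.6% at 6 h in the lowest group. In the highest group it fell from 77.81% to 35.15%. In ZC3H7B-OE the median labelled share at 6 h was 22.24% in the lowest group and 41.18% in the highest. Spearman's rho was taken as a description over 8037 genes that share libraries. For the share of codons ending in G or C with the slope it was -0.383 in control and -0.121 in ZC3H7B-OE, and with the difference 0.359. With the odds difference rho was 0.184 and with the difference in all reads 0.119.

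By single codons the split was by the last base. The frequency of each of the 30 sense codons ending in A or T had a negative rho with the slope difference (median -0.215), as had 2 of the 31 ending in G or C (median 0.198). In the odds difference the same counts were 30 and 2, with medians of -0.117 and 0.101. The composition of the codons and that of the 3' UTR went together. The share of G and C in the 3' UTR, known for 7836 genes, had a rho of 0.762 with that of the third codon position and of 0.412 with the slope difference. Over 5 groups of 3' UTR GC the median difference was -0.048, -0.017, 0.012, 0.063 and 0.110 log2 per h, with 0, 0, 1, 20 and 51 genes called higher. Genes were also put in 3 equal groups by each measure. In the lowest 3' UTR group the median difference was -0.040, -0.031 and -0.028 from low to high codon GC, with 0 genes called higher. In the highest 3' UTR group it was 0.044, 0.067 and 0.106, with 0, 9 and 58 called higher. The discordant groups are small, 38 genes with high 3' UTR and low codon GC and 116 with the reverse.

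The balance of GC-rich and GC-poor genes also differed between libraries as a whole. It was taken as the mean log2 of RPM (with 0.5 added) over the top group by 3' UTR GC minus that over the lowest. For labelled reads it ran from 0.0072 to 0.186 in control libraries at 2 h and from -0.722 to -0.664 at 6 h. In ZC3H7B-OE libraries it ran from 0.329 to 0.695 at 2 h and from 0.215 to 0.401 at 6 h. For all reads it ran from 0.111 to 0.332 and then from -1.15 to -1.09 in control, and from 0.440 to 0.795 and then from -0.556 to -0.425 in ZC3H7B-OE. The lines stood apart at every time in both kinds of read, and all reads moved toward GC-poor genes during the chase in both lines.

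With the trend over 3' UTR GC in all reads taken out of each library, an alternative chosen after seeing the data, 22 entries differed in slope (15 higher and 7 lower), all 22 among the 96. With the trend in labelled reads taken out, 6 did (5 higher and 1 lower), of which 4 were among the 96. H2AFX (0.22) and HSPA13 (-0.24) kept their calls in both. By construction these corrections remove any difference that follows GC, whatever its source, so the part of library composition in the slope differences was not tested. Coding length followed the difference less (rho 0.122), as did 3' UTR length (rho -0.055).

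**Figure D5:**
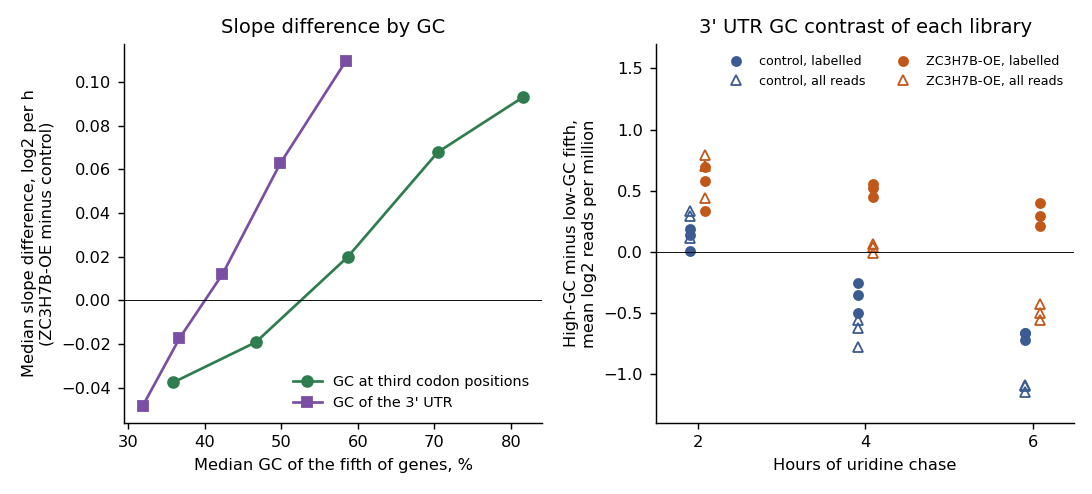
Left: median slope difference in log2 per h (y axis) of 5 groups of genes by GC at the third codon position or in the 3' UTR (x axis, median GC of the group in %). Right: mean log2 RPM of the GC-rich minus the GC-poor group of 3' UTRs (y axis) in each library by hour (x axis), for labelled (filled) and all reads (open). The median difference rises from -0.048 to 0.110 over 3' UTR groups, and the ZC3H7B-OE libraries lie above control at every hour.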

How the data were processed

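The authors deposited 2 tables of whole-number counts per gene, not normalized, for poly(A) RNA of all samples: all reads, and reads with T>C conversions. Per the submitters' processing notes, fastp and the build GRCh37 were used; how reads were aligned, how T>C conversions were called and how many make a read labelled, and whether counting used strand were not given in the sources used here. In all, of 19692 entries, 450 name several genes and stayed in library totals and tests.

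Counts were fitted with edgeR 4.0.16 in R 4.3.3 (glmQLFit, robust; filterByExpr, minimum count 10, on labelled counts), with an intercept and a slope over hours per line and plain all-read totals as library sizes. Odds were fitted on labelled and unlabelled counts with a term per library. Steps used a mean per group. p-values were adjusted by Benjamini-Hochberg over all entries tested. Scripts were tested on simulated counts. Alternatives used DESeq2 1.42.0, limma 3.58.1, other scalings, filters, times and samples. Replicate numbers did not pair libraries: of 45 same-numbered pairs, 5 had deviations correlated above 0.1. No 2 replicates agreed within sampling noise.

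Genes were named by rule: ZC3H7B and ZC3H7A; among well-measured genes the 10 highest and 10 lowest called differences, filled by smallest p; the 4 steepest and 4 shallowest mean slopes; and from each of 18 lists the 2 tested members with the smallest p. The members, lists and tests were chosen with earlier results of these data known. GC and codons were read from GENCODE release 29 transcripts by gene ID; no coordinate was carried between builds. TXNIP and a 3' UTR for MTHFSD were not found there. One result that this rule chose is not reported here.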

Additional observations from a re-analysis of the deposited data

Results flagged for a closer look

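The following differed between the lines by the test of the difference itself (edgeR's quasi-likelihood test, adjusted p under 0.05). Entries passing numbered 96 for the slope of labelled reads over 2 to 6 h, 3 for the slope of the labelled odds, 30 for the change from 2 to 4 h and 3 for the change from 4 to 6 h. Label was lost more slowly in ZC3H7B-OE, in log2 per h, in TMEM79 (0.496), TXNIP (0.389), ZNF580 (0.386), BCAR1 (0.379), PITX1 (0.359), SAMD11 (0.344), H2AFX (0.330), SIX5 (0.329), MTHFSD (0.329), ACSS1 (0.329), MCM2 (0.235), ZNF598 (0.227), DGCR8 (0.214), SESN2 (0.180), UCK1 (0.176) and GPT2 (0.156). It was lost faster in YPEL5 (-0.352), HSPA13 (-0.305), SEPT7 (-0.279), SHOC2 (-0.259), OSBPL8 (-0.224), ITCH (-0.223) and B2M (-0.181). Loss is meant against all reads here, and the control slopes of ITCH and OSBPL8 were above 0. Of these 23 genes only H2AFX also passed the test of the labelled odds. Of the 21 with a 3' UTR GC value, 8 kept the call with the GC trend of all reads removed. With that of labelled reads removed, 2 did.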

How the results depend on the processing

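The count of 96 entries for the slope difference became 52 with TMM factors, 264 with a mean per group and a linear contrast, 0 with 0 h added, and, chosen after seeing the data, 22 and 6 with the GC trend of all or labelled reads removed. The 3 for the odds became 1 with limma-trend, 6 with a minimum count of 30, 0 with 0 h added (607 at an unadjusted p under 0.05) and 317 with a mean per group. The 0 for all reads became 56 with DESeq2, 2 with no filter, 33 with 0 h added and 250 with a mean per group. The 30 for 2 to 4 h became 60 with DESeq2, 47 with limma-voom and 63 with no filter, and the 3 for 4 to 6 h became 0 with TMM factors or DESeq2 (685 and 662 at an unadjusted p under 0.05) and 8 with no filter. With labelled totals, slopes are relative to the average labelled read, and 2460 entries differed from 0 in control and 2045 in ZC3H7B-OE. Leaving out 1 library gave 34 to 142 entries for the slope difference, 0 to 3 for the odds, 0 to 1 for all reads, 8 to 141 for 2 to 4 h and 0 to 61 for 4 to 6 h; for the slope of the labelled share it gave 0.0111 to 0.0202, with exact permutation p from 0.121 to 0.372. With the replicate block the counts were 70, 1 (odds), 0 (all reads), 23 (2 to 4 h) and 3 (4 to 6 h), and the share difference was 0.0157 (exact permutation p = 0.219); each library correlated best with its own number in 4 of 18 cases. Directions reversed with 0 h added for B2M (0.0433), RSL24D1 (0.137), RPL13A (0.0151), EIF1AX (0.0586), SYVN1 (-0.00107) and P4HB (-0.00182), and for P4HB with the GC trend of labelled reads removed (-0.0203); the cause was not tested. A gene with few labelled reads, such as FOSL1 or CCT8, cannot be compared at this depth.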
